A study of Mus musculus with 6 samples.

Results

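AP-1 is a transcription factor dimer built from Fos and Jun proteins, and its genes belong to the immediate early genes, whose mRNA appears within minutes of a stimulus without new protein synthesis. The 10 genes described here are the Fos family (Fos, Fosb, Fosl1 and Fosl2), the Jun family (Jun, Junb and Jund), the zinc finger factor Egr1, and Ier2 and Ier3. They were taken as a list of symbols, matched to Ensembl gene IDs through an mm10 annotation, out of 32285 genes in the count table. All 10 IDs were present, and 9 passed the filter on low counts, 1 of them (Fosb) only through its high-load libraries. Fosl1 did not, with 6 counts over the 3 controls and 15 over the 3 high-load libraries.

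The samples were kidneys of 6 female mice aged 100 weeks, sequenced as bulk RNA. All 6 mice carried a TrnE mutation, in a gene of mitochondrial DNA that encodes the tRNA of glutamate. Controls 1, 2 and 3 had mutation loads (the percentage of mitochondrial DNA copies with the mutation) of 10%, 5% and 15%, and high-load kidneys 1, 2 and 3 had 75%, 75% and 80%. The control group is therefore a low-load group and not one without the mutation. No source used here gives the strain, the tissue in which load was measured, the time of day or the interval between death and freezing. Nor does any say that the animals came from separate litters, so p-values measure the spread between these kidneys.

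MAP kinases switch on Fos and Egr1 by phosphorylating ternary complex factors that sit with serum response factor on their promoters, and Jun is raised and activated through JNK. Jun proteins pair with each other or with Fos proteins, whereas Fos proteins need a Jun partner. In kidney tubules these genes are known to respond to ischaemia, toxic injury and growth factors, and in any tissue they also respond to dissection and handling. Handling is not described in the labels, and its part in the values below was not tested.

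Libraries held 17449270 to 18865997 counts. High-load 1 stood apart: its scaling factor was 1.14 against 0.944 to 0.997 in the other 5, and the summed level of 10 proximal tubule markers was 3975 CPM (counts scaled to a common library size) against 10680 to 24820 in the others. It was also the highest of the 6 libraries for 8 of the 9 tested members, so results are given with and without it. How many of all genes were highest there was not counted, so this cannot be called particular to the members. Markers of proximal tubule, thick ascending limb, collecting duct, podocytes and endothelium were detected in every library. In bulk tissue, fewer cells of a type and less RNA per cell cannot be told apart.

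Shown are the RefSeq promoter windows of the 4 members in which a searched element was found. The mRNAs of these 4 had higher means in high-load kidneys. So did those of Fosl2 and Jund, but the windows of Fosl2, Jund and Ier3 held none of the elements searched. Each window runs from 250 bases before to 50 bases after the start site, 5′ to 3′ on the gene's strand, in GRCm38.p6 (the mm10 assembly). Capitals mark the TATA box TATAAA, the 5′ part of the cyclic AMP response element, TGACG, and the AP-1-like element TGACATCA, wherever a script found them on either strand. The windows are chr12:85473640-85473939 (plus strand) for Fos, chr7:19309996-19310295 (minus) for Fosb, chr4:95052173-95052472 (minus) for Jun and chr8:84978699-84978998 (minus) for Junb.

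Fos: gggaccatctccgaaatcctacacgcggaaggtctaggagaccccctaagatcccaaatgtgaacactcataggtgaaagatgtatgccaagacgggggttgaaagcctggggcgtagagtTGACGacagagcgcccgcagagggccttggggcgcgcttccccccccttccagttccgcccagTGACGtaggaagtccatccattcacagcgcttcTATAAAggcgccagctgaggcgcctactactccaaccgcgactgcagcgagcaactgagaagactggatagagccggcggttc
Fosb: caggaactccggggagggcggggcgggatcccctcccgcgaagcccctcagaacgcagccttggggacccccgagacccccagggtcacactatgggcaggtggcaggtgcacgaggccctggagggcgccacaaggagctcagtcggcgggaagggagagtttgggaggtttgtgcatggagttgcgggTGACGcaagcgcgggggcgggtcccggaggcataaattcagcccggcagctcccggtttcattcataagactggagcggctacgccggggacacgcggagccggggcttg
Jun: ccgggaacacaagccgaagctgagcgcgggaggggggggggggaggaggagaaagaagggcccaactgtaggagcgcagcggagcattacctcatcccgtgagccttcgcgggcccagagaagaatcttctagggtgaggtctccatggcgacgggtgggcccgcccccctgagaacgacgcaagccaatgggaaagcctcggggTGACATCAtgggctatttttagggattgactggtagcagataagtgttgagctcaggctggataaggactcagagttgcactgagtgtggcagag
Junb: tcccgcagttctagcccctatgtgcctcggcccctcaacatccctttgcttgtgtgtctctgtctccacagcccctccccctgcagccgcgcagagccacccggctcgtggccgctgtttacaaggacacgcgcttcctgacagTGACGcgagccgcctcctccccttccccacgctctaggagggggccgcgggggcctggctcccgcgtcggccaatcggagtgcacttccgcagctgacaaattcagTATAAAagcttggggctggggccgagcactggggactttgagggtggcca

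RefSeq windows were found for 7 of the 10 members, with no entry for Fosl1, Egr1 and Ier2. The Fos window held TATAAA at positions -33 to -28 from the start site and TGACG at -66 to -62 and -129 to -125. The Fosb window held TGACG at -60 to -56, and the Junb window at -106 to -102. TATAAA in the Junb window began at the RefSeq start itself, and the start in GENCODE M21 lies 30 bases further downstream. TGACATCA lay at -45 to -38 in the Jun window. Among 32851 promoter windows of the same length, 20.8% held TGACG, 13.6% held TATAAA and 3.62% held TGACATCA. TGACG and TGACATCA were searched after the windows had been read. The CArG box (the core of the serum response element, in 1.63% of all windows), the full element TGACGTCA (1.79%), the AP-1 site TGACTCA (5.20%) and the EGR site GCGTGGGCG (0.612%) had no match in any of the 7. These letters are absent from these windows alone, and elements further away were not searched. The RefSeq start of the Jund window lies 1210 bases upstream of the GENCODE start. That of the Fosl2 window, at 32136472, lies downstream of the GENCODE start at 32135801, which the window does not reach.

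The single comparison asks whether these mRNAs differ between high-load kidneys and controls. Fos, Egr1, Junb, Fosl2, Jund and Jun had higher mean levels in high-load kidneys, by 1.45 to 3.88 times between group means. The ratio was 1.40 for Ier2 and 0.925 for Ier3. It was 5.65 for Fosb, which passed the filter only through its high-load libraries. None of the 9 passed an adjusted p of 0.05 in edgeR's quasi-likelihood test, where 3 of 15955 genes were called higher (0.0188%) and 0 lower. At an adjusted p under 0.1, 1 member, Egr1, was called higher (2.59% of all genes were). At an unadjusted p under 0.05, 7 members were higher and 0 lower, beside 14.0% of all genes higher and 10.2% lower. These 7 include Fosb, which had to differ to be tested. With a filter of at least 1 CPM in 3 libraries, which Fosb did not pass, 6 of 8 members were higher, beside 2122 of 14890 genes. The median log2 fold change of these 8 was 0.72. In 7 members, Fosb included, every high-load library lay above every control, as it did in 17.1% of all genes tested, and in 0 members every one lay below (15.8% of all genes). The median log2 fold change of the 9 was 0.82, beside 0.01 for all genes.

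These counts depended on the tool and on single libraries. DESeq2 called Fos, Fosl2, Junb and Egr1 higher at an adjusted p under 0.05 (4 members, beside 4.51% of all genes with a p). With limma-voom 0 were called, and 5 were higher at an unadjusted p under 0.05, beside 2080 of 15955 genes. Without high-load 1, 5 members were higher at an unadjusted p under 0.05 (10.6% of all genes) and the median log2 fold change was 0.55. The number was 3 without control 2 (9.84% of all genes) and 4 without control 3 (9.38%). Without high-load 2 it was 8 (15.9%), and 2 members, Fos and Jund, passed an adjusted p of 0.05 in edgeR (3.34% of all genes).

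**Figure D1:**
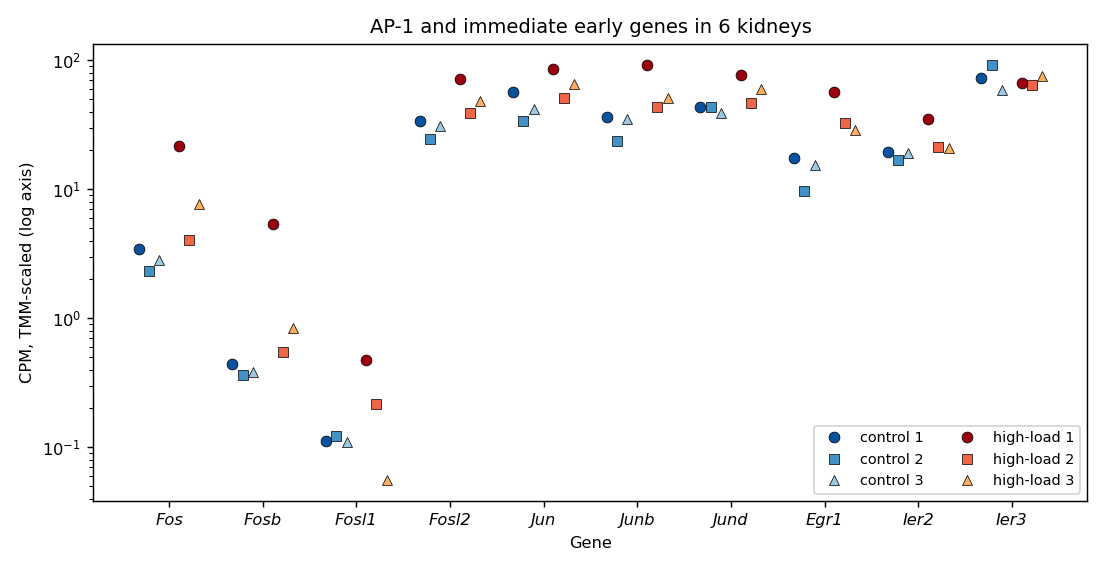
Level of each of the 10 genes in each kidney, in CPM after TMM scaling on a log axis; blue symbols are the 3 controls and red to orange symbols the 3 high-load kidneys. High-load 1 is the highest point for every gene except Ier3, where control 2 is highest, and the Fosl1 points rest on 1 to 10 counts each.

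Fos, the founding member of its family and the partner that stabilises Jun dimers, was at 3.44, 2.31 and 2.83 CPM in controls 1 to 3 and at 21.6, 4.07 and 7.63 CPM in high-load 1 to 3. Fos (ENSMUSG00000021250) lies on chromosome 12 at 85473890 to 85477273, plus strand. The groups did not overlap, but the lowest high-load value lay close to the highest control. These levels came from 38 to 62 counts in the controls and 75 to 456 in the high-load libraries. The log2 fold change was 1.95 with SE 0.61 (edgeR adjusted p 0.140). Without high-load 1 it was 1.03, and the ratio of group means went from 3.88 to 2.05.

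Fosb, which is close to Fos in sequence and also has a short splice form that lacks part of the activation region, had the lowest level per kilobase of exon of the tested members. It was at 0.444, 0.365 and 0.381 CPM in controls and 5.34, 0.543 and 0.835 CPM in high-load kidneys. Its gene (ENSMUSG00000003545) lies on chromosome 7 at 19302696 to 19310051, minus strand. High-load 1 alone reached 13.5 times the control mean, on 113 counts, whereas the other libraries had 6 to 15 counts. All 3 controls (8, 6 and 7 counts) were below the filter's minimum of 10, so Fosb was tested only because of its high-load counts. Its fitted log2 fold change of 2.49 (SE 0.94), or 0.79 without high-load 1, is therefore a description.

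Fosl2, which encodes Fra-2, a Fos protein without the strong activation region of Fos, had a far higher level per kilobase of exon than Fosb. It was at 34.1, 24.7 and 31.1 CPM in controls and 71.3, 38.9 and 48.4 CPM in high-load kidneys, with no overlap. The fitted log2 fold change was 0.82 with SE 0.24 (edgeR adjusted p 0.129), and 0.55 without high-load 1. Fosl2 (ENSMUSG00000029135) lies on chromosome 5 at 32135801 to 32157842, plus strand, and Fosl1 (ENSMUSG00000024912) on chromosome 19 at 5447547 to 5455946, plus strand. Fosl1, which encodes Fra-1, had 2 counts in each control and 10, 4 and 1 counts in high-load 1 to 3. Its groups overlapped, and no fold change is given at that depth. Exons of Fosl1 overlap those of Ccdc85b on the other strand.

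Jun, the partner that binds DNA as a homodimer or with Fos proteins, was the 1 member with an unadjusted p under 0.05 whose groups overlapped. It was at 56.4, 33.9 and 42.1 CPM in controls and 85.5, 51.4 and 65.9 CPM in high-load kidneys, so that control 1 exceeded high-load 2. The log2 fold change was 0.62 with SE 0.24 (edgeR adjusted p 0.189). It was 0.46 without control 2 and 0.41 without high-load 1. Jun (ENSMUSG00000052684) lies on chromosome 4 at 95049034 to 95052222, minus strand. Junos, on its other strand, went from 1.90 to 2.78 CPM on average.

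Junb, a Jun protein of weaker activity that is often counted among the brakes on Jun, was at 36.4, 23.9 and 34.9 CPM in controls and 92.4, 43.7 and 51.3 CPM in high-load kidneys. The groups did not overlap. On the log2 scale the fold change was 0.98 with SE 0.31 (edgeR adjusted p 0.142), and 0.58 without high-load 1. Junb (ENSMUSG00000052837) lies on chromosome 8 at 84974484 to 84978718, minus strand. Junb shares exonic bases with Prdx2 on the other strand, whose level was 243 and 252 CPM in the groups. The strand setting of the counting is not stated, so reads of such neighbours cannot be told apart.

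Jund, the Jun gene with steady expression in most tissues, had the tightest controls of its family. It was at 43.8, 43.8 and 38.8 CPM in controls and 77.3, 46.3 and 60.2 CPM in high-load kidneys. Its log2 fold change was 0.54 with SE 0.18 (edgeR adjusted p 0.156), or 0.34 without high-load 1. Jund (ENSMUSG00000071076) lies on the same chromosome at 70698949 to 70700616, plus strand. High-load 2 lay just above the controls.

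Egr1, a zinc finger factor induced through the same MAP kinase route as Fos, gave the smallest p of the members. It was at 17.5, 9.66 and 15.4 CPM in controls and 57.1, 32.5 and 28.7 CPM in high-load kidneys. The lowest high-load kidney was above the highest control by a clear margin, unlike in Fos. The group means were 14.2 ± 4.07 and 39.5 ± 15.4 CPM (SD, n = 3). The log2 fold change was 1.47 with SE 0.33 (edgeR adjusted p 0.0998), and it was 1.109 without high-load 1 and 1.26 without control 2. Egr1 (ENSMUSG00000038418) lies on chromosome 18 at 34859823 to 34864984, plus strand. Without high-load 1 the ratio of group means was 2.16, the largest of the 9 tested members.

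Ier2, a small nuclear protein of the early response, was at 19.3, 16.9 and 19.01 CPM in controls and 34.9, 21.2 and 21.0 CPM in high-load kidneys. The groups did not overlap, and high-load 2 and 3 stood within a few CPM of the controls. On the log2 scale the difference was 0.48 with SE 0.21 (edgeR adjusted p 0.222), and 0.20 without high-load 1. Ier3, an early response gene linked to cell survival and a target of NF-kappaB and p53, was slightly lower on average in high-load kidneys. It was at 73.4, 91.8 and 58.8 CPM in controls and 66.6, 64.9 and 75.7 CPM in high-load kidneys, with full overlap. Ier2 (ENSMUSG00000053560) lies on chromosome 8 at 84661331 to 84662852, minus strand, and Ier3 (ENSMUSG00000003541) on chromosome 17 at 35821684 to 35822923, plus strand. The log2 fold change of Ier3 was -0.11 with SE 0.17 (edgeR adjusted p 0.709), and 0.06 without control 2.

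**Figure D2:**
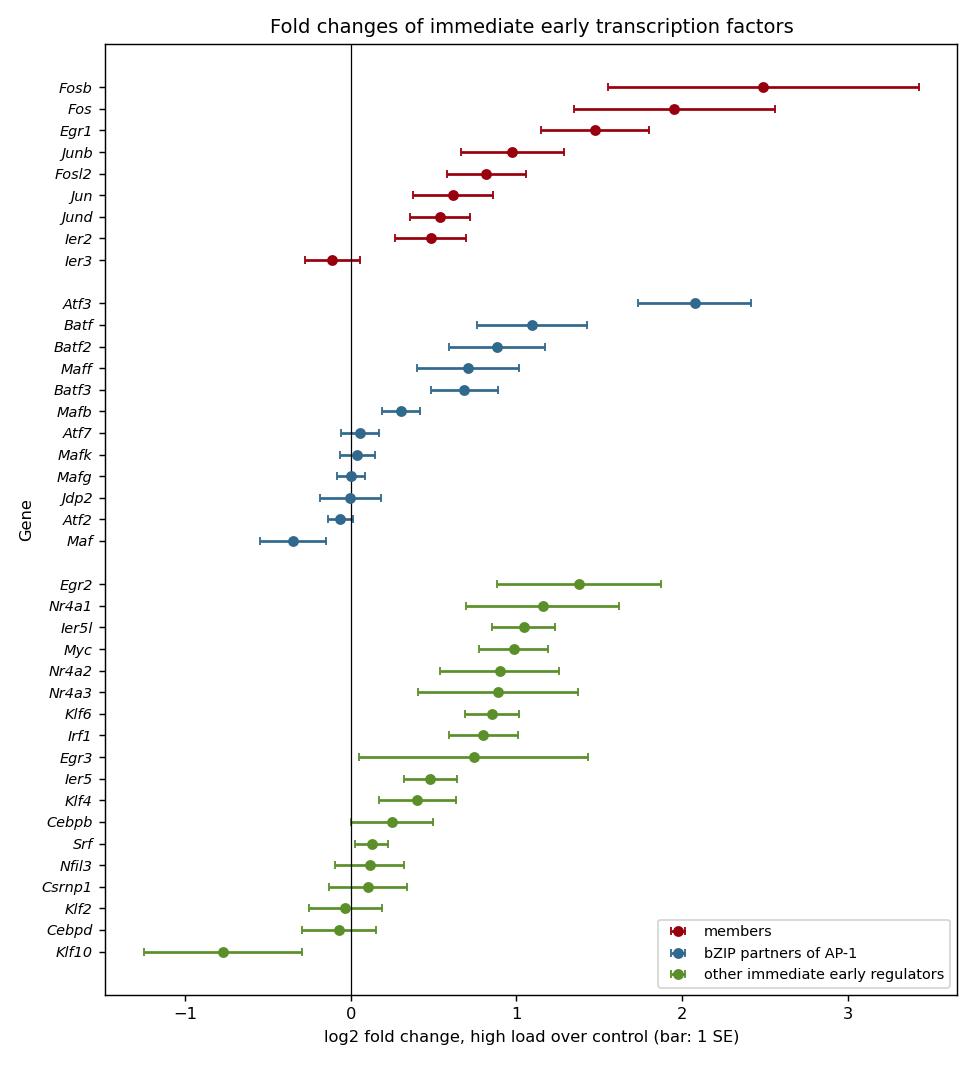
Fitted log2 fold change of high load over control (x axis) for the tested members, the bZIP partners of AP-1 and other immediate early regulators, with bars of 1 SE. Fosb, Fos and Atf3 lie furthest to the right with wide bars for the first 2, while Ier3, Mafg and Jdp2 lie next to 0.

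Per kilobase of exon, the scale on which genes can be compared, the order in controls was Ier3 (66.0 ± 14.6 CPM per kilobase, SD, n = 3), Jund (25.3 ± 1.71), Jun (13.8 ± 3.57), Junb (13.8 ± 2.97), Ier2 (12.1 ± 0.865), Egr1 (3.17 ± 0.908), Fosl2 (3.10 ± 0.494) and Fos (1.22 ± 0.241). Fosb (0.0635 ± 0.00668) and Fosl1 (0.0560 ± 0.00332) came last. Jun, Junb and Ier2 did not differ beyond their spread, nor did Egr1 and Fosl2. In high-load kidneys Ier3 (61.1 ± 5.15) was again highest, followed by Jund (36.7 ± 9.30), Junb (27.1 ± 11.4) and Jun (21.2 ± 5.36). The high-load values of Junb overlapped those of Jund and of Jun, while each high-load value of Jund (27.8 to 46.3) was above each of Jun (16.1 to 26.8).

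Since AP-1 works as a dimer, the make-up of its mRNA pool was also described, as each subunit's share of the counts per kilobase summed over the 7 Fos and Jun genes. Jun family mRNA made up 92.1%, 92.8% and 91.9% of the pool in controls and 86.5%, 91.4% and 90.4% in high-load kidneys. The Fos family share was accordingly higher in each high-load library than in each control. Most of that difference was Fos itself, at 2.26%, 1.93% and 2.14% in controls and 7.00%, 2.52% and 3.71% in high-load kidneys. Fosl2 was the main Fos family mRNA in every library except high-load 1 (there too when lengths of the longest transcript were used), at 5.02% to 5.85% throughout. With the length of all exons Jund was the largest single subunit in every library, at 40.5%, 51.6% and 41.5% in controls and 35.4%, 40.4% and 41.3% in high-load kidneys, with overlapping groups. With the longest transcript's length, Junb exceeded Jund in high-load 1 (34.7% against 31.5%). The shares are of mRNA and carry no test.

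**Figure D3:**
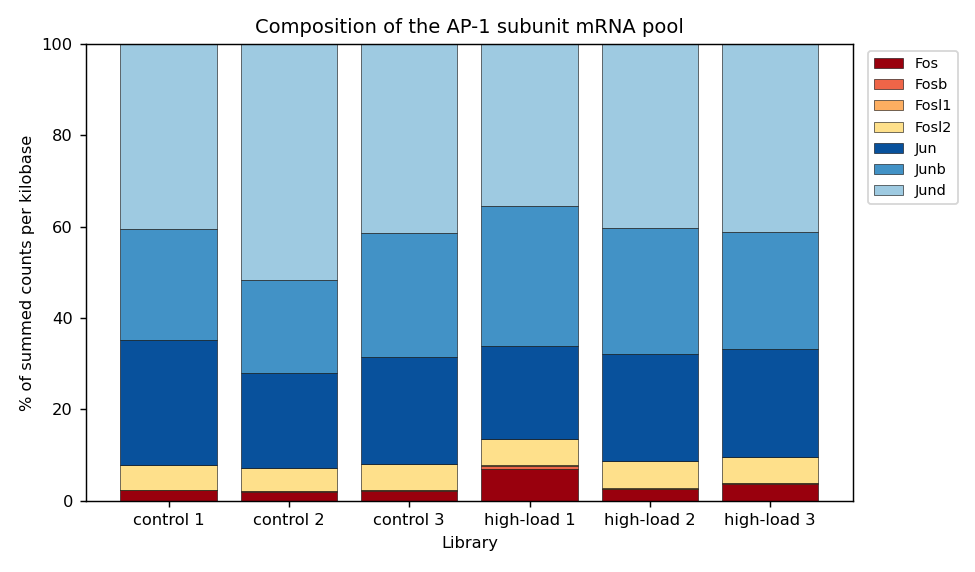
Share of each Fos and Jun gene in the summed counts per kilobase of exon of the 7 genes, in percent, with 1 stacked bar per kidney. Blue Jun family segments fill 86.5% to 92.8% of each bar, and the Fos segment is tallest in high-load 1 at 7.00%.

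The other genes of the pathway were counted in lists that had been written with earlier results of these data known, so their directions are descriptions. No gene of the 8 lists (154 genes) passed an adjusted p of 0.05 in edgeR. Counts below are at an unadjusted p under 0.05. Those with all 6 libraries are to be read beside the 14.0% higher and 10.2% lower of all genes. With 1 library left out, the share of all genes higher was 10.6% (high-load 1), 15.9% (high-load 2), 9.84% (control 2) or 9.38% (control 3). Without control 1, 1826 of 16334 genes were higher and 1160 lower. Shares of all genes lower are not given for the other libraries left out, nor the share higher without high-load 3. Among 12 bZIP partners of AP-1, 5 were higher and 0 lower, with a median log2 fold change of 0.18, and 3 were higher without control 2 or without control 3. Atf3, a stress-induced partner of Jun, was at 3.94, 2.25 and 5.12 CPM in controls and 20.8, 12.3 and 14.8 CPM in high-load kidneys, with a log2 fold change of 2.08 and SE 0.34 (edgeR adjusted p 0.0936). It was the only one of these 12 partners under an adjusted p of 0.1. Batf3, Batf and Batf2, AP-1 factors of immune cells, stood 0.69, 1.10 and 0.88 higher on the log2 scale (edgeR adjusted p 0.130, 0.135 and 0.147).

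Other immediate early regulators were higher in 8 of 18 tested genes and lower in 0, with a median of 0.61, or 5 of 18 and 0.22 without high-load 1. Without control 2, 6 were higher and 2 lower. Klf6, a zinc finger factor of tubule injury, was at 60.6, 54.8 and 55.8 CPM in controls and 126, 81.6 and 101 CPM in high-load kidneys (difference on the log2 scale 0.85, SE 0.16). Myc, a growth regulator, was at 13.7, 15.7 and 14.2 CPM and at 37.9, 21.7 and 26.6 CPM (0.99, SE 0.21). Ier5l and Irf1 had log2 fold changes of 1.04 and 0.80. The edgeR adjusted p was 0.0946 for Klf6 and Ier5l, 0.0981 for Myc and 0.118 for Irf1. Nr4a1, an orphan nuclear receptor induced together with Fos in many cells, was at 13.2, 7.60 and 10.1 CPM and at 39.1, 11.2 and 18.4 CPM. Its groups overlapped, as control 1 exceeded high-load 2 (log2 fold change 1.16, SE 0.46, edgeR adjusted p 0.192).

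Of 36 tested feedback, signalling and secreted genes of the early response, 16 were higher and 4 lower, the latter a share near that of all genes, with a median of 0.35, or 0.17 without high-load 1. The number lower was 2 without control 2 or high-load 3 and 1 without control 3. Areg, an EGF receptor ligand, was at 0.222, 0.122 and 0.109 CPM in controls and 2.41, 1.25 and 4.23 CPM in high-load kidneys. These levels rest on 4, 2 and 2 counts against 51, 23 and 76, so Areg, counted among the 16, passed the filter only through its high-load libraries, and no fold change is given. Socs3, a brake on STAT3 signalling, was at 12.4, 10.1 and 11.8 CPM and at 47.6, 23.0 and 29.9 CPM (log2 fold change 1.55, SE 0.27). Hbegf, another EGF receptor ligand, and the kinase Plk2 had log2 fold changes of 0.78 and 0.87. The edgeR adjusted p was 0.0946 for Socs3 and Hbegf and 0.0955 for Plk2. The 4 lower genes, named after their values were seen, were the kinase Sgk1 (-0.81), the ERK phosphatase Dusp6 (-0.40), the EGF receptor inhibitor Errfi1 (-0.78) and Gadd45g (-0.26). Their edgeR adjusted p ran from 0.104 to 0.198. Dusp1, the phosphatase that ends MAP kinase signals and a common responder to tissue handling, was at 57.3, 44.9 and 47.0 CPM in controls and 71.5, 44.6 and 37.8 CPM in high-load kidneys, with overlap and a log2 fold change of 0.05 (SE 0.24). Zfp36 and Nfkbia, also named after their values were seen, overlapped too, at 0.21 and 0.09.

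Upstream of the members, mRNA of the MAP kinase and serum response pathway was centred on 0. Of 29 tested genes 4 were higher and 4 lower, shares near those of all genes, with a median of 0.00. Leaving out control 1 gave 2 lower, leaving out control 2 gave 0, and leaving out high-load 3 gave 1. The higher ones were Elk3, a ternary complex factor (0.39), the p38 kinases Mapk11 (0.75) and Mapk13 (0.79), and the ribosomal S6 kinase Rps6ka1 (0.56). The lower ones, named after their values were seen, were Mapk14 (-0.37), Mapk10 (-0.90), Map3k5 (-0.41) and Mapk9 (-0.20). The edgeR adjusted p of all 8 lay between 0.120 and 0.175. Phosphorylation, on which the activity of these kinases depends, is not read by RNA-seq.

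Textbook targets of AP-1 were higher in 8 of 14 tested genes and lower in 0, with a median of 0.91, or 8 of 14 and 0.62 without high-load 1. Lgals3, which encodes the lectin galectin-3, was at 52.2, 50.2 and 45.0 CPM in controls and 286, 123 and 185 CPM in high-load kidneys (difference on the log2 scale 2.01, SE 0.30). Timp1, an inhibitor of matrix proteases, was at 6.93, 2.73 and 4.79 CPM and at 27.3, 12.6 and 21.8 CPM (2.09, SE 0.41). The proteases Mmp14 and Mmp3 had log2 fold changes of 1.07 and 2.11. The edgeR adjusted p of the 4 was 0.0919 to 0.0967. Factors other than AP-1 also drive these genes.

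Lists bearing on tissue handling and time of collection gave the following values. Heat shock genes, which handling or warm storage can raise, were higher in 1 of 13 and lower in 0, with a median of 0.02, and 3 were lower without high-load 2, 1 without control 2. The 1 higher gene was Hspb1, at 22.6, 14.3 and 18.0 CPM in controls and 48.3, 23.3 and 36.0 CPM in high-load kidneys (difference on the log2 scale 0.97, edgeR adjusted p 0.132). Hspa1a, an inducible heat shock protein, was at 7.99, 7.29 and 7.14 CPM and at 12.1, 9.28 and 8.02 CPM (0.39, edgeR adjusted p 0.255), while Hsph1 (-0.34) and Hspd1 (-0.43) had values below 0. Hypoxia genes were higher in 1 of 13 (Pfkfb3, 0.39) and lower in 2 (Bnip3, -0.51, and Ndrg1, -0.81), with a median of -0.15. Leaving out any library but high-load 3 gave 0 higher, the number lower ran from 1 to 3, and the median was 0.05 without control 2 or without high-load 2. Adm, of the same list, was at 0.41.

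Circadian clock genes were higher in 1 of 16, Bhlhe41 (1.25, edgeR adjusted p 0.0974), and lower in 4, with a median of -0.28. Leaving out control 1 or high-load 3 gave 2 lower, and leaving out high-load 1 gave 6. Among the 4 were the clock output factors Tef (-0.73) and Hlf (-1.12), and Per3 (-0.53). The fourth was Per1, named after its values were seen, itself an early response gene, at 96.9, 125 and 86.4 CPM in controls and 82.4, 71.8 and 47.2 CPM in high-load kidneys. Whether the animals were killed at different times of day was not tested.

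**Figure D4:**
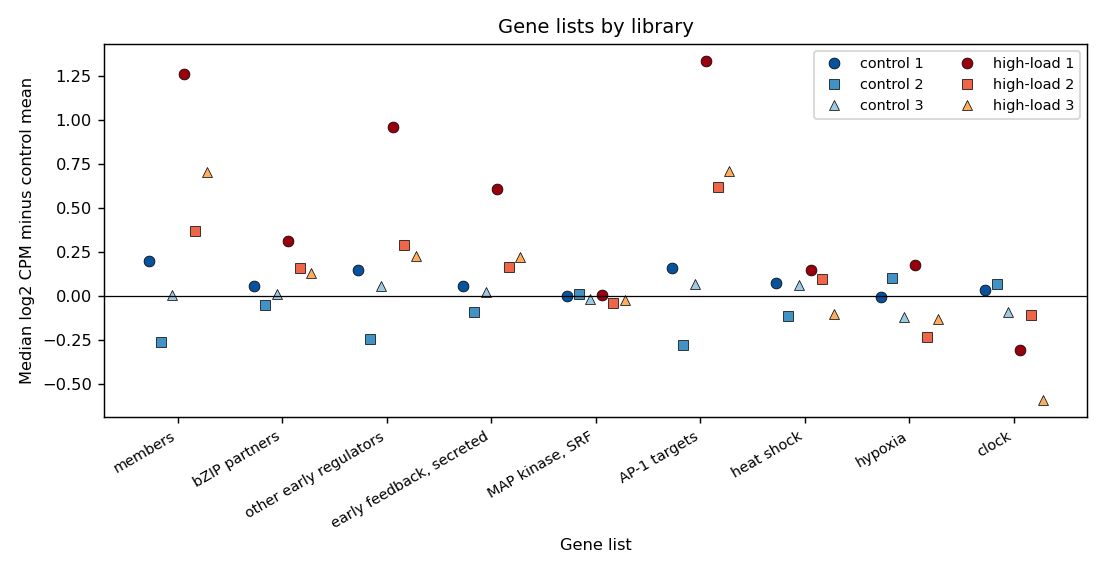
Median over the tested genes of each list of the log2 CPM difference from the control mean (y axis), for 9 lists and 6 kidneys. For the members the high-load points are 1.26, 0.37 and 0.70 against -0.26 to 0.20 in controls, while the MAP kinase points all lie between -0.04 and 0.01 and the heat shock points of the groups overlap.

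Markers of some cell types also differed in level between the groups, and their part in the members' values was not tested. Summed levels overlapped between the groups for lymphocyte, urothelial, red cell, distal convoluted tubule, collecting duct, podocyte, endothelium and neutrophil markers. Of all genes tested, 17.1% were higher without overlap and 15.8% lower without overlap. Over 8 macrophage markers the summed level was 805 to 1064 CPM in controls and 1373 to 2442 CPM in high-load kidneys, with 7 of 8 higher without overlap. The sum over 8 injured-tubule markers was 592 to 894 and 1854 to 4273 CPM, also with 7 of 8 higher without overlap, and over 8 fibroblast and smooth muscle markers it was 326 to 596 and 721 to 1069 CPM, with 4 of 8. Of 10 proximal tubule markers 6 were lower without overlap, though the summed levels overlapped (18130 to 24820 and 3975 to 20430 CPM). Thick ascending limb markers summed to 5168 to 7617 CPM in controls and 4094 to 4646 CPM in high-load kidneys. Lymphocyte markers summed to 16.5 to 36.2 and 30.3 to 191 CPM, highest in high-load 1. Urothelial markers, a sign of renal pelvis in the piece, summed to 12.8 to 43.0 CPM in controls and to 210, 2.77 and 2.62 CPM in high-load 1 to 3. Haemoglobin and other red cell transcripts, which vary with blood left in the tissue, summed to 203, 2002 and 217 CPM in controls 1 to 3 and 330, 163 and 81.7 CPM in high-load 1 to 3. Control 2, with the most of these transcripts, was also the lowest control for 7 of the 9 tested members. How often control 2 was lowest among all genes was not counted, and a link to blood content was not tested.

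Outside all lists, the 3 genes whose profile over the 6 libraries was most like that of Fos were Sfn, Gprc5a and Akr1b8. Likeness was the root mean square distance between log2 CPM values centred on their mean, among 10286 genes with a mean of at least 10 CPM. The distances were 0.269, 0.279 and 0.287 on the log2 scale. Sfn, which encodes 14-3-3 sigma, was at 9.04, 8.33 and 8.17 CPM in controls and 41.3, 11.2 and 17.4 CPM in high-load kidneys. Among the members the distance to Fos was smallest for Fosb (0.322), followed by Egr1 (0.482), Junb (0.511) and Fosl2 (0.599), and largest for Ier3 (1.13). All these profiles share the same 6 libraries and the high value in high-load 1.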

How the data were processed

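Bulk RNA-seq of 6 kidneys was analysed, 3 per group, with groups and replicate numbers from the sample titles and loads from the genotype labels. The authors deposited raw counts per Ensembl gene. HISAT2 2.2.1, featureCounts 2.0.1, edgeR, fastp 0.23.2, SAMtools 1.11 and build mm10 are named in the submitters' processing notes. The annotation, strand setting and treatment of multi-mapping reads are not stated there. Symbols, positions and exon lengths came from GENCODE M21, an mm10 annotation, which matched 32158 of 32285 IDs.

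Groups were compared in R 4.3.3 with edgeR 4.0.16 (filterByExpr, minimum count 10, TMM scaling, robust quasi-likelihood F test on group, two-sided, Benjamini-Hochberg over 15955 genes). SEs were derived from F. Scripts were tested on simulated data. An exact permutation test of 3 against 3 cannot go below 0.1, so none was run on single genes. Alternatives were other scalings and filters, DESeq2 1.42.0, limma-voom (limma 3.58.1), the replicate number as a block, load as a number, and each library left out. The members and lists were chosen with earlier results of these data known. By a rule set beforehand the text names all members, the 4 genes of each other list with the smallest p, Atf3, Nr4a1, Dusp1 and the 3 genes most like Fos. Outside that rule are the genes marked as named after their values were seen, neighbours on the other strand, and Mafg and Jdp2 in a caption. Promoter windows came from RefSeq; protein sequences were not analysed here.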

Additional observations from a re-analysis of the deposited data

How the results depend on the processing

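No member was lower at an adjusted p under 0.05 or an unadjusted p under 0.05 under any of the 16 alternatives. The number higher at an adjusted p under 0.05 (0) was 4 with DESeq2 and 0 to 2 with 1 library left out. At an adjusted p under 0.1 (1, beside 414 of 15955 genes) it was 6 with DESeq2 (1540 of 23811 genes). It was 0 with DESeq2's size factors (291 of 15955), library totals (457), limma-voom (1) or no filter on low counts (473 of 23865). It was 7 without high-load 2 and 0 with any other library left out. Without high-load 2, calls rose over all genes too, with 544 of 16283 higher at the stricter adjusted p under 0.05. The share of all genes under 0.1 is not given for that setting, so the 7 cannot be called particular to the members. At an unadjusted p under 0.05 (7) it was 3 to 8 with 1 library left out. The replicate number as a replicate block gave 4 members higher at an adjusted p under 0.1. Of all 15955 genes, the number higher went from 414 to 606 and the number lower from 97 to 315. Deviations of same-numbered libraries correlated at 0.124, -0.182 and 0.0492, and not every library correlated best with its own number. The labels state no pairing, and these correlations can neither show nor exclude one. Genes of the 8 other lists at an adjusted p under 0.05 (0) were 29 higher and 5 lower with DESeq2. Of all 23811 genes with a p, 1074 were higher and 624 lower there. With no filter 1 gene of these lists was higher (46 of 23865 genes). Without high-load 2, 19 were higher and 3 lower, beside 544 of 16283 genes higher. The share of all genes lower is not given for that setting. With any other library left out 0 were higher and 0 lower. The cause of these shifts was not tested. The members' median log2 fold change was 0.55 to 1.00 with 1 library left out. Of 143 log2 fold changes of single members under the alternatives, 2 changed sign, both of Ier3 (0.0081 with library totals, and -0.26 to 0.060 with 1 library left out, the latter without control 2). Library totals moved the median of all genes from 0.01 to 0.13. Without the 50 bases after the start, TATAAA was found in the Fos window alone among the 7 members. Fosb and Fosl1, with 1 to 15 counts in most libraries, are limited by depth.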
